A study of Mus musculus with 6 samples.

Results

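The genes described here encode the enzymes that remove reactive oxygen species and conjugate reactive chemicals to glutathione, together with NRF2, the factor that controls many of them. They were taken from the array table by gene symbol: glutathione transferases (Gsta, Gstk, Gstm, Gsto, Gstp, Gstt, Gstz and Mgst genes), glutathione peroxidases (Gpx), peroxiredoxins (Prdx), superoxide dismutases (Sod), and Nqo1, Hmox1, Gclc, Gclm, Gss, Gsr, Txn1, Txnrd1, Srxn1, Cat, Nfe2l2 and Keap1. This rule found 50 of the 23748 rows of the table, each row being 1 gene.

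RNA came from growing mouse embryonic fibroblasts (MEF) of stage E14.5, collected before any differentiation. There were 3 wild type arrays and 3 arrays of FOG-2 Rb- cells, which come from knock-in mice whose FOG-2, a co-factor of GATA factors encoded by Zfpm2, cannot bind the retinoblastoma protein pRb. The comparison addresses how that loss of binding goes with gene expression in these cells. Both genotypes grew in DMEM/F12 with 20% serum, 2 mM glutamine and 0.1 mM beta-mercaptoethanol, a thiol reducing agent, so every value below was measured with that agent present. Every wild type title has an 18 in it and every FOG-2 Rb- title a 27, with no word on what these mark, so genotype and that number cannot be told apart. The samples are numbered as experiments but are not said to be different embryos or different cultures, and the p-values rest on their spread alone, which may be technical.

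Cells dispose of oxidants in linked steps. Superoxide dismutases turn superoxide into hydrogen peroxide, which catalase, glutathione peroxidases and peroxiredoxins then remove. Of these, the glutathione peroxidases and peroxiredoxins use glutathione or thioredoxin as the electron source. Glutathione is made by glutamate-cysteine ligase and glutathione synthetase and is regenerated by glutathione reductase, while glutathione transferases attach it to electrophiles. NRF2 is held back by KEAP1 and, once released, acts through antioxidant response elements, with Nqo1, Hmox1, Gclm, Txnrd1 and Srxn1 among its best known targets in mouse fibroblasts.

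The core of the antioxidant response element, TGACNNNGC, was looked for on both strands of the promoter sequences of RefSeq (GRCm38.p6), which run from 250 bases before to 50 bases after each gene's start. Of the 50 genes, 44 had a promoter there and 10 of these (22.7%) held the core, against 14.0% of all 27025 genes with a promoter. No promoter was read for Gsta4, Gclc, Gstt2, Hmox1, Gsr and Sod3, 5 of which were called. By call, the core was in 2 of 8 promoters of genes that rose (25%), 1 of 10 of those that fell (10%) and 7 of 26 of those that did not pass (26.9%). Among the members that changed between the genotypes the core was found in Mgst1 and Nfe2l2, which rose, and in Gclm, which fell. It also lay in the promoters of Gsta3, Gstm5, Gstm7, Prdx1, Sod1, Srxn1 and Txnrd1, which did not pass the test. The stretches around the core are printed for the 3 changed genes, so that the letters can be read beside the values below. They are also printed for Prdx1 and Txnrd1, 2 genes of the peroxiredoxin and thioredoxin family that did not pass. Capitals mark the core, or its reverse complement where it lies on the other strand, and each sequence reads along the gene.
Mgst1 (chr6:138140446-138140504, plus strand): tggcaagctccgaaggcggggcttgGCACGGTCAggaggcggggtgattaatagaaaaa
Nfe2l2 (chr2:75704870-75704913, minus strand): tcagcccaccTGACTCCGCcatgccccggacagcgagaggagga
Gclm (chr3:122245398-122245456, plus strand): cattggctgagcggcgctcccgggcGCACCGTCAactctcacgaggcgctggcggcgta
Prdx1 (chr4:116685441-116685499, plus strand): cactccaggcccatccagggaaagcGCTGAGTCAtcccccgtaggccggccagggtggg
Txnrd1 (chr10:82859089-82859147, plus strand): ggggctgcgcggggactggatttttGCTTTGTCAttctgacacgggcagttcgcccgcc
The centre of the core lay 52 bases before the start in Mgst1, 236 in Nfe2l2, 130 in Gclm, 129 in Prdx1 and 88 in Txnrd1. A match describes letters only, and its absence from the window in Nqo1 says nothing about sites elsewhere.

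Antioxidant genes moved in both directions in FOG-2 Rb- cells. Of the 50 members, 10 rose, 13 fell and 27 did not pass (limma, adjusted p under 0.05 after Benjamini-Hochberg adjustment over all rows). That is 46% of the members, where the same test called 18% of all rows, 9.44% as higher and 8.59% as lower. The genotypes' arrays did not overlap for 31 members (62%), against 35.6% of all rows. The median log2 fold change of the members, always FOG-2 Rb- minus wild type, was 0.05, beside -0.02 for all rows, and the median size of the change was 0.22 beside 0.10. The shares also moved with signal, as 9 members and 9404 of all rows had a mean log2 level under 5. Among brighter rows, 23 of 41 members (56.1%) and 27.9% of rows were called. When the fit was made on those brighter rows alone, 29 of the 41 members were called (13 higher and 16 lower), against 35.8% of these rows.

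**Figure D1:**
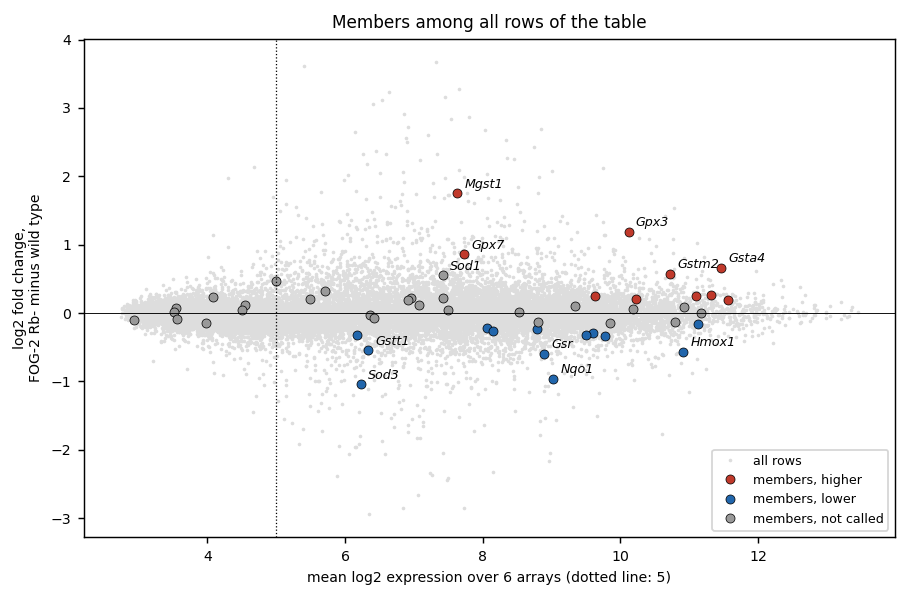
Each point is 1 gene, with its mean log2 expression over the 6 arrays on the horizontal axis and its log2 fold change on the vertical axis; members of the antioxidant and glutathione group are outlined and coloured by call. All 9 members to the left of the dotted line at 5 were uncalled, and Mgst1 at 1.75 and Sod3 at -1.04 were the outermost members.

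The largest rise was in Mgst1, which encodes a membrane-bound transferase and peroxidase of the endoplasmic reticulum and the outer mitochondrial membrane. Its log2 expression, given here and below in replicate order, was 6.90, 6.76 and 6.59 in the wild type arrays and 8.59, 8.40 and 8.51 in the FOG-2 Rb- arrays. All FOG-2 Rb- arrays were thus higher than all wild type arrays, and the mean went from 6.75 ± 0.15 to 8.50 ± 0.09 (SD, n = 3 each), a 3.37-fold rise (log2 fold change 1.75, SE 0.09, limma adjusted p = 4.52e-05). Of the other membrane-bound transferases, Mgst3 fell by 0.27 on the log2 scale (adjusted p = 0.0146, and 0.0563 without FOG-2 Rb- replicate 2), and Mgst2, which can make leukotriene C, differed by 0.04 on the log2 scale (95% interval -0.07 to 0.15, adjusted p = 0.614). In this small family 1 gene rose, 1 fell and 1 did not pass (66.7% called, beside 18% of all rows and 27.9% of brighter rows).

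Among the glutathione peroxidases, 3 of 8 rose and 1 fell (50% called, beside 18% of all rows and 27.9% of brighter rows). Gpx3, the secreted selenoenzyme of plasma, measured 9.41, 9.45 and 9.71 in wild type and 10.72, 10.74 and 10.68 in FOG-2 Rb- cells. The groups did not overlap, with wild type replicate 3 nearest to the mutant arrays. With means 9.52 ± 0.16 and 10.71 ± 0.03 (SD, n = 3 each), the rise was 2.28-fold (log2 1.19, SE 0.08, limma adjusted p = 0.000183). Gpx7, a peroxidase of the endoplasmic reticulum that works with protein disulfide isomerases, measured 7.17, 7.36 and 7.38 in wild type and 8.19, 8.04 and 8.27 in FOG-2 Rb- cells. With means 7.30 ± 0.11 and 8.17 ± 0.12 (SD, n = 3 each), it rose 1.82-fold (log2 0.86, SE 0.08, limma adjusted p = 0.000698), again without overlap. The other glutathione peroxidase of that compartment, Gpx8, went the opposite way by a small step, from 11.21 ± 0.04 to 11.04 ± 0.0049 (SD, n = 3 each). Its log2 fold change was -0.16 (limma adjusted p = 0.0465), a call that was lost whichever array was left out (adjusted p from 0.0575 to 0.134).

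Gpx1, the cytosolic selenoenzyme, rose 1.19-fold, with 11.01, 10.94 and 10.98 in wild type and 11.22, 11.23 and 11.24 in FOG-2 Rb- cells (limma adjusted p = 0.00791). Gpx4, which reduces phospholipid hydroperoxides and guards against ferroptosis, measured 7.04, 7.03 and 6.99 against 7.14, 7.13 and 7.15, groups that did not overlap but whose difference of 0.12 did not pass (adjusted p = 0.109). Gpx2, Gpx5 and Gpx6, known from gut, epididymis and olfactory tissue, had mean log2 levels from 3.50 to 4.06 in both genotypes and did not pass.

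All 4 member genes of glutathione synthesis and reduction were called, 1 higher and 3 lower. The same test called 18% of all rows and 27.9% of rows with a mean log2 level of at least 5. The call of Gss, given below, was not stable. Gclc, the catalytic subunit of glutamate-cysteine ligase, measured 9.54, 9.49 and 9.49 in wild type and 9.73, 9.76 and 9.79 in FOG-2 Rb- cells. Gclm, its modifier subunit, measured 9.61, 9.69 and 9.68 in wild type and 9.42, 9.34 and 9.23 in FOG-2 Rb- cells. The means were 9.51 ± 0.03 and 9.76 ± 0.03 for Gclc and 9.66 ± 0.05 and 9.33 ± 0.09 for Gclm (SD, n = 3 each). The subunits of 1 enzyme thus moved in opposite directions without overlap in either, Gclc rising 1.19-fold (log2 fold change 0.25, SE 0.05, limma adjusted p = 0.00947) and Gclm falling 1.26-fold (-0.33, SE 0.06, adjusted p = 0.0116).

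Gsr, glutathione reductase, which returns oxidised glutathione to its reduced form with NADPH, measured 9.21, 9.21 and 9.17 in wild type and 8.73, 8.55 and 8.52 in FOG-2 Rb- cells. With means 9.19 ± 0.02 and 8.60 ± 0.11 (SD, n = 3 each) and no overlap, it fell 1.51-fold (log2 fold change -0.59, SE 0.06, limma adjusted p = 0.00124). Gss, glutathione synthetase, went from 8.91 ± 0.08 to 8.68 ± 0.04 (SD, n = 3 each; log2 fold change -0.23, limma adjusted p = 0.035). The call for Gss was lost without any 1 array other than wild type replicate 1 (adjusted p up to 0.112).

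Of the regulators, Nfe2l2, which encodes NRF2, measured 10.08, 10.12 and 10.17 in wild type and 10.33, 10.33 and 10.32 in FOG-2 Rb- cells. The groups did not overlap. With means 10.12 ± 0.05 and 10.33 ± 0.0028 (SD, n = 3 each), the rise was 1.15-fold (log2 0.21, SE 0.05, limma adjusted p = 0.0228). It passed without wild type replicate 3 but not without any other array (adjusted p up to 0.0739). Keap1, the adaptor that marks NRF2 for degradation, measured 7.22, 7.41 and 7.30 against 7.47, 7.58 and 7.56, with means 7.31 ± 0.10 and 7.54 ± 0.06 (SD, n = 3 each). These groups did not overlap, but the difference of 0.23 (SE 0.06) did not pass (limma adjusted p = 0.0563). It did pass without wild type replicate 2 (limma adjusted p = 0.0433). Keap1 also passed with a trended, robust variance prior and in the fit on rows with a mean of at least 5.

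Nqo1 and Hmox1, 2 standard readouts of NRF2 in mouse cells, fell while Nfe2l2 mRNA rose. Nqo1, a quinone reductase, measured 9.42, 9.57 and 9.52 in wild type and 8.56, 8.57 and 8.49 in FOG-2 Rb- cells. With means 9.50 ± 0.08 and 8.54 ± 0.04 (SD, n = 3 each), its fall was 1.95-fold (log2 fold change -0.96, SE 0.06, limma adjusted p = 8e-05), and all mutant arrays lay below all wild type arrays. Hmox1, the inducible heme oxygenase, measured 11.19, 11.19 and 11.21 in wild type and 10.62, 10.58 and 10.69 in FOG-2 Rb- cells. With means 11.20 ± 0.01 and 10.63 ± 0.05 (SD, n = 3 each), this was a 1.48-fold fall, again without overlap (log2 fold change -0.57, SE 0.05, limma adjusted p = 0.000376). Both kept the call whichever array was left out.

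**Figure D2:**
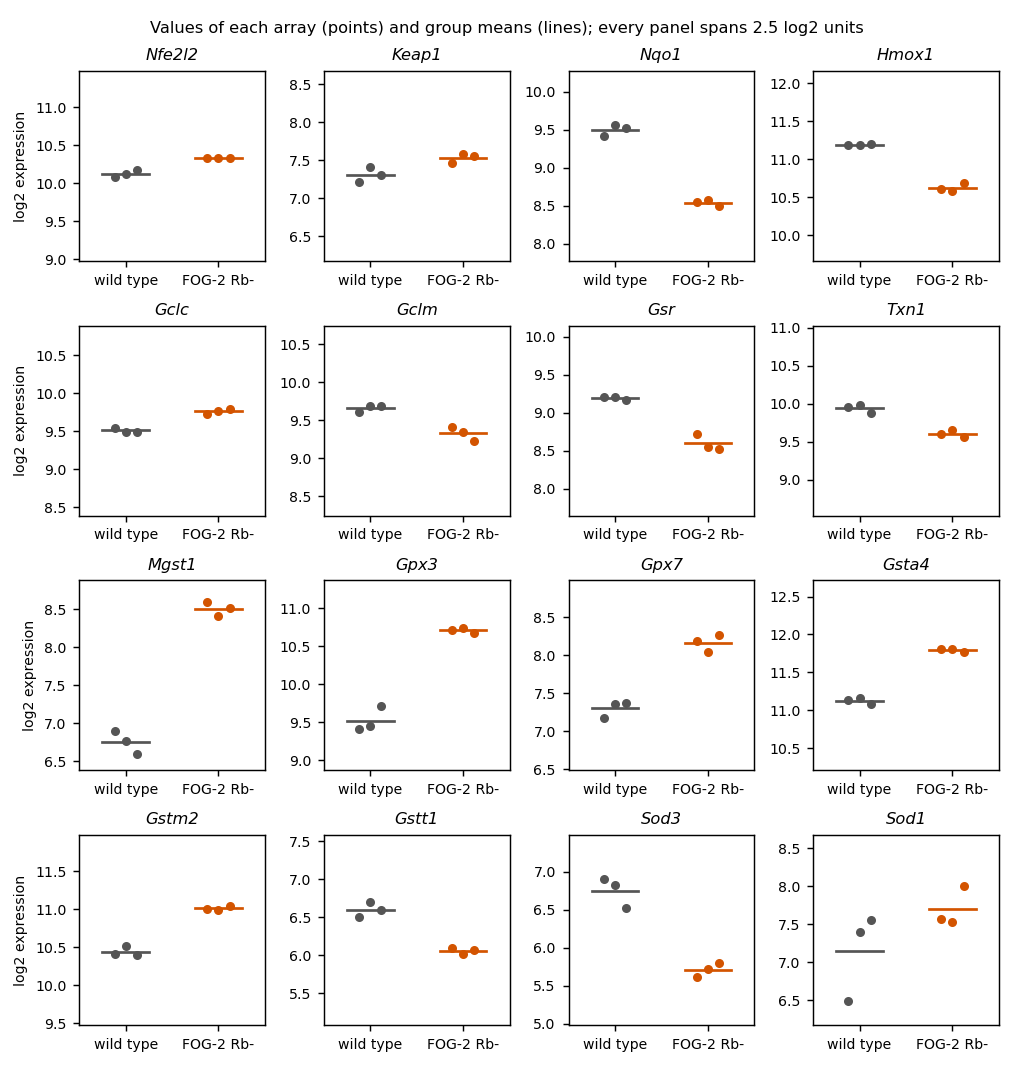
Log2 expression of 16 members in each array, as points, with the mean of each genotype as a line; every panel spans the same number of log2 units, so distances can be compared between panels. Nqo1, Hmox1, Gsr, Txn1, Gclm, Gstt1 and Sod3 sat lower in all 3 FOG-2 Rb- arrays and Mgst1, Gpx3, Gpx7, Gsta4 and Gstm2 higher, while Sod1 overlapped.

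Of the 7 peroxiredoxin and thioredoxin genes that the symbols found, 2 fell and 5 did not pass (28.6% called, beside 18% of all rows). Each of the 7 had a mean log2 level above 5, and their share is near the 27.9% called among brighter rows. Prdx5 and Txn2, described further on, rose. Txn1, cytosolic thioredoxin, measured 9.96, 9.99 and 9.88 in wild type and 9.60, 9.66 and 9.57 in FOG-2 Rb- cells. With means 9.95 ± 0.06 and 9.61 ± 0.04 (SD, n = 3 each), this was a 1.26-fold fall, without overlap (log2 fold change -0.34, SE 0.05, limma adjusted p = 0.00523). Txnrd1, the reductase that recharges it, measured 11.18, 11.19 and 11.13 against 11.18, 11.17 and 11.16, so the arrays overlapped. With means 11.16 ± 0.03 and 11.17 ± 0.01 (SD, n = 3 each), the difference was 0.01 (SE 0.04) with a 95% interval of -0.10 to 0.11 (adjusted p = 0.943). Srxn1, sulfiredoxin, which repairs over-oxidised peroxiredoxins, measured 8.71, 8.51 and 8.36 against 8.55, 8.46 and 8.59, which overlap. With means 8.53 ± 0.17 and 8.54 ± 0.07 (SD, n = 3 each), the difference was 0.01 (SE 0.09) with an interval of -0.21 to 0.23 (adjusted p = 0.963). Txnrd1 and Srxn1 are, like Nqo1, Hmox1 and Gclm, commonly used NRF2 targets. The other 3 of these fell, with log2 fold changes of -0.96, -0.57 and -0.33. Some further targets, described below, rose, among them Slc7a11 by 0.76 on the log2 scale. Of 29 measured genes of NADPH supply and other NRF2 targets, 11 rose, 2 fell and 16 did not pass. That is 44.8% of the list, beside 18% of all rows and 27.9% of brighter rows. The intervals of Txnrd1 and Srxn1 rest on a spread between arrays that may be technical. NRF2 activity was not tested.

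Among the peroxiredoxins, Prdx4, the form in the endoplasmic reticulum, fell from 8.18 ± 0.03 to 7.96 ± 0.01 (SD, n = 3 each; log2 fold change -0.22, limma adjusted p = 0.0141), a call lost without FOG-2 Rb- replicate 1 or 3 (adjusted p = 0.0519 and 0.0562). Prdx2 of the cytosol and Prdx3 of the mitochondria each had a log2 fold change of -0.14 with no overlap between genotypes and did not pass (adjusted p = 0.0779 and 0.0687). Prdx1 overlapped (log2 fold change 0.06, adjusted p = 0.599). The rows of Prdx5 and Prdx6 carry no symbol in the platform annotation and were identified by Entrez ID. Prdx5 measured 10.61, 10.56 and 10.57 against 10.78, 10.76 and 10.79 and rose (log2 fold change 0.20, limma adjusted p = 0.0213), and Prdx6 differed by -0.24 on the log2 scale (adjusted p = 0.0517).

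Of the superoxide dismutases, the extracellular and mitochondrial genes fell and the cytosolic one did not pass. With catalase, given below, this family of 4 genes had 75% called, beside 18% of all rows and 27.9% of brighter rows. Sod3, the extracellular form that binds heparan sulfate, measured 6.90, 6.83 and 6.52 in wild type and 5.61, 5.72 and 5.79 in FOG-2 Rb- cells. With means 6.75 ± 0.20 and 5.71 ± 0.09 (SD, n = 3 each), this was a 2.06-fold fall (log2 fold change -1.04, SE 0.11, limma adjusted p = 0.000887). Sod2, the manganese enzyme of mitochondria, measured 9.77, 9.76 and 9.70 against 9.51, 9.47 and 9.38. With means 9.74 ± 0.04 and 9.45 ± 0.07 (SD, n = 3 each), it fell 1.22-fold (log2 fold change -0.29, SE 0.05, limma adjusted p = 0.0115). Neither gene's groups overlapped.

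Sod1, the copper and zinc enzyme of the cytosol, measured 6.49, 7.39 and 7.56 in wild type and 7.57, 7.52 and 8.00 in FOG-2 Rb- cells. Wild type replicate 1 lay below all other arrays and FOG-2 Rb- replicate 3 above them, and the groups overlapped. With means 7.15 ± 0.58 and 7.70 ± 0.26 (SD, n = 3 each), the difference of 0.55 (SE 0.28) did not pass (adjusted p = 0.25), and it was 0.22 without wild type replicate 1. Cat, peroxisomal catalase, measured 11.41, 11.51 and 11.49 against 11.71, 11.63 and 11.66, without overlap. With means 11.47 ± 0.05 and 11.66 ± 0.04 (SD, n = 3 each), it rose 1.15-fold (log2 0.20, SE 0.05, limma adjusted p = 0.0393), a call that was lost whichever array was left out (adjusted p up to 0.122).

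Of the 20 soluble glutathione transferases, 3 rose, 2 fell and 15 did not pass (25% called, beside 18% of all rows and 27.9% of brighter rows). Gsta4, an alpha-class enzyme with high activity on the lipid peroxidation product hydroxynonenal, measured 11.13, 11.17 and 11.08 in wild type and 11.81, 11.80 and 11.76 in FOG-2 Rb- cells. With means 11.13 ± 0.04 and 11.79 ± 0.03 (SD, n = 3 each) and no overlap, this was a 1.58-fold rise (log2 0.66, SE 0.05, limma adjusted p = 0.000183). The alpha-class genes Gsta2 and Gsta3 had mean levels under 5 and did not pass (log2 fold changes -0.10 and 0.11).

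Gstm2, a mu-class enzyme, measured 10.41, 10.51 and 10.39 in wild type and 11.00, 10.98 and 11.04 in FOG-2 Rb- cells, without overlap. With means 10.44 ± 0.07 and 11.01 ± 0.03 (SD, n = 3 each), this was a 1.49-fold rise (log2 0.57, SE 0.05, limma adjusted p = 0.00056). It lies in a run of 7 mu-class genes that neighbour each other in gene order. The other 6 did not pass, with log2 fold changes of 0.20 for Gstm1, 0.23 for Gstm3, -0.03 for Gstm4, -0.14 for Gstm5, 0.47 for Gstm6 and -0.08 for Gstm7. Genes of this class are similar in sequence, so probes may read more than 1 of them, which was not tested.

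The theta-class genes also neighbour each other. Gstt1 measured 6.51, 6.70 and 6.59 in wild type and 6.09, 6.02 and 6.07 in FOG-2 Rb- cells, without overlap. With means 6.60 ± 0.10 and 6.06 ± 0.04 (SD, n = 3 each), it fell 1.45-fold (log2 fold change -0.54, SE 0.06, limma adjusted p = 0.00156). Gstt2 (-0.08), Gstt3 (0.22) and Gstt4 (0.05) beside it did not pass.

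Gstp3 measured 6.47, 6.32 and 6.19 against 6.05, 6.05 and 5.93, without overlap. With means 6.33 ± 0.14 and 6.01 ± 0.07 (SD, n = 3 each), it fell by 0.32 on the log2 scale (SE 0.08, limma adjusted p = 0.0331), a call that held with wild type replicate 3 left out and with no other array left out (adjusted p up to 0.108). Its pi-class neighbour Gstp1 differed by 0.10 (adjusted p = 0.346).

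Gsto1, an omega-class enzyme with thioltransferase activity, measured 11.22, 11.14 and 11.20 against 11.47, 11.39 and 11.46 and rose 1.19-fold (limma adjusted p = 0.013; 0.0513 and 0.0537 without FOG-2 Rb- replicate 1 and 3). Its neighbour Gsto2 had a log2 fold change of 0.33 and groups that did not overlap, but a wider mutant spread (5.86, 6.10 and 5.66), and did not pass (adjusted p = 0.0884). Gstk1, the mitochondrial and peroxisomal kappa-class enzyme, and Gstz1, which acts in tyrosine breakdown, had log2 fold changes of 0.21 and 0.11 and did not pass.

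**Figure D3:**
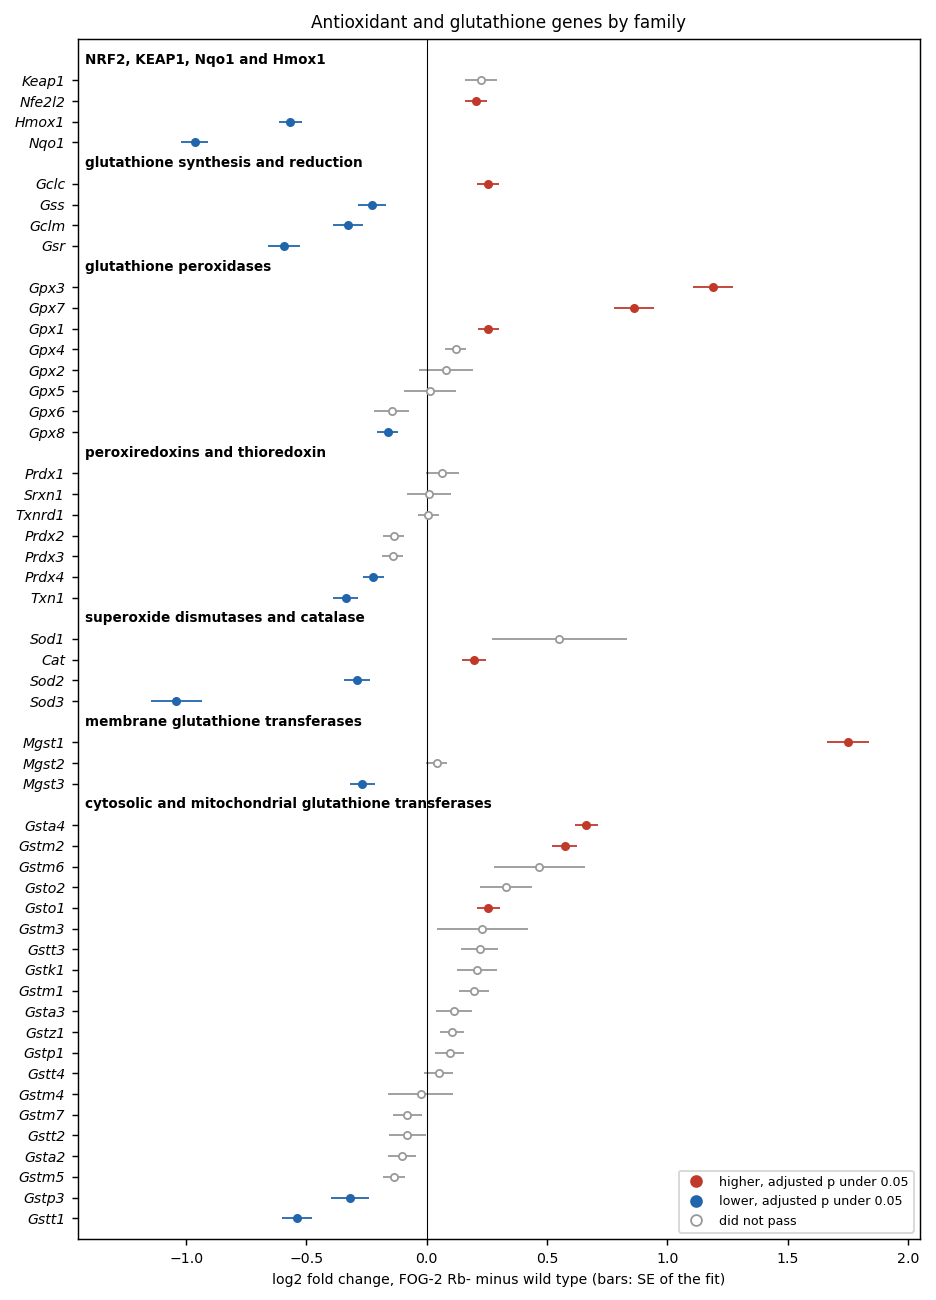
Log2 fold change of the 50 members, grouped by family, with the standard error of the fit as bars; filled red and blue points passed as higher and lower and open points did not pass. Both directions occur in every family but the peroxiredoxin and thioredoxin family, where 2 of the 7 genes with a platform symbol fell; Prdx5, which rose, has no such symbol and is not drawn.

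Of the 23 calls, 15 held under all 12 alternative settings of the fit. These were Mgst1, Gpx3, Gpx7, Gsta4, Gstm2, Gpx1 and Gclc among the rises and Sod3, Nqo1, Gsr, Hmox1, Gstt1, Txn1, Gclm and Sod2 among the falls. The 8 that were lost in at least 1 setting were Cat, Nfe2l2, Gsto1, Gss, Gpx8, Gstp3, Prdx4 and Mgst3, all with changes of 0.32 or less on the log2 scale. No called member changed sign. Of the uncalled members, 10 passed in at least 1 setting. Prdx2, Prdx3 and Gstm5 passed with the trended, robust variance prior, on rows with a mean of at least 5, and by the deposited p-values. Gpx4 passed in the last 2 of these settings, and Keap1 in 3 settings. Gstt3, Gstm1, Gstm6, Gsto2 and Gstk1 each passed in 1.

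**Figure D4:**
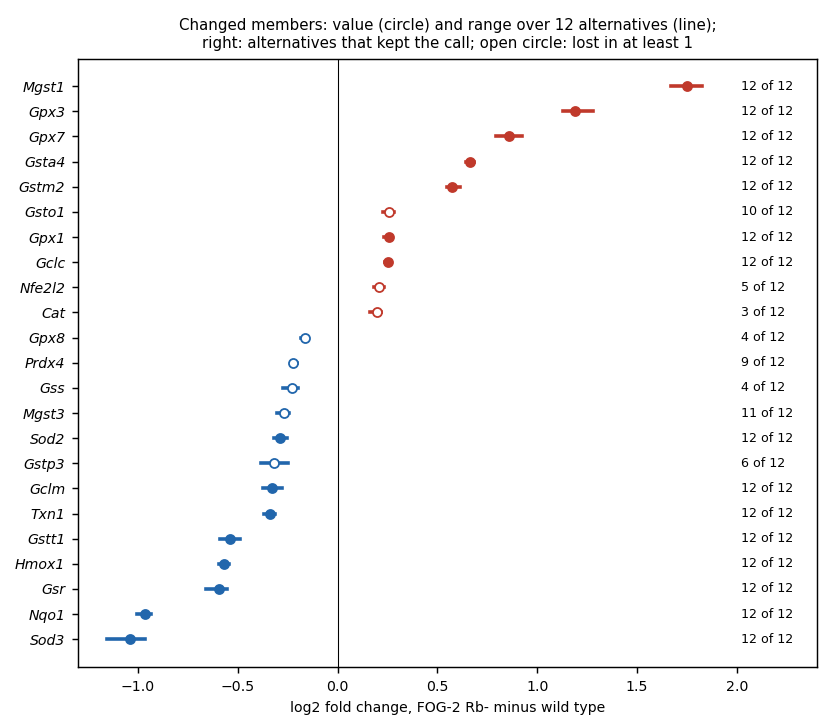
For each of the 23 called members, the circle gives the log2 fold change and the line its range over the alternative settings, with the number of settings that kept the call at the right. Filled circles, such as Mgst1 and Nqo1, kept the call in all 12, while Cat kept it in 3 and Nfe2l2 in 5.

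Genes around these enzymes were read in 5 lists, and unless given otherwise the genes named passed the same limma test. Of 35 genes of the thioredoxin and selenoprotein system, 5 rose, 4 fell and 26 did not pass, with a median log2 fold change of 0.01. These calls were 25.7% of the list (14.3% higher and 11.4% lower), beside 18% (9.44% and 8.59%) of all rows. The share of all rows counts many dim ones, and 27.9% of rows with a mean log2 level of at least 5 were called. In this list 1 gene had a mean under 5. With 1 array left out, 3 to 5 rose and 2 to 4 fell. Selenop, the secreted selenium carrier, measured 7.59, 7.67 and 7.59 in wild type and 9.05, 8.98 and 9.01 in FOG-2 Rb- cells, a 2.64-fold rise (limma adjusted p = 9.02e-06). Gpx3 and Selenop both encode secreted selenoproteins, and both were higher without overlap. Nxn, nucleoredoxin, rose 1.53-fold and Selenom, a selenoprotein of the endoplasmic reticulum, 1.43-fold, while Glrx, glutaredoxin, fell 1.48-fold and the sestrin gene Sesn3 fell 1.43-fold. Txn2, mitochondrial thioredoxin, rose by 0.23 on the log2 scale, the opposite direction to cytosolic Txn1.

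Of 30 genes of glutathione turnover and export, 5 rose, 2 fell and 23 did not pass (median 0.06). The called share was 23.3% of the list (16.7% higher and 6.67% lower), beside 18% (9.44% and 8.59%) of all rows. Here 6 genes had a mean log2 level under 5, and 27.9% of all rows at or above that level were called. Without any 1 of the arrays 1 gene fell. Slc7a11, the cystine transporter that feeds glutathione synthesis and is itself a target of NRF2, measured 4.71, 4.97 and 4.95 against 5.63, 5.58 and 5.71 and rose 1.69-fold (limma adjusted p = 0.00113). Dpep1, a dipeptidase that splits cysteinylglycine, rose 2.04-fold, Clic5, a chloride channel protein with a glutathione transferase fold, 1.61-fold, and the export pump genes Abcc5 and Abcc1 1.58-fold and 1.40-fold. Cth, which makes cysteine from cystathionine, fell 1.49-fold, from 6.77 ± 0.07 to 6.19 ± 0.13 (SD, n = 3 each; limma adjusted p = 0.00285).

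Of 29 measured genes of NADPH supply and other NRF2 targets, 11 rose, 2 fell and 16 did not pass (median 0.13). This was 44.8% of the list (37.9% higher and 6.9% lower), beside 18% (9.44% and 8.59%) of all rows. Only 2 of its genes had a mean log2 level under 5, and 27.9% of all rows at or above that level were called. Ephx2, soluble epoxide hydrolase, rose 2.14-fold, the aldo-keto reductase gene Akr1b10 1.82-fold, the carbonyl reductase gene Cbr3 1.75-fold, the aldehyde oxidase gene Aox1 1.70-fold and the biliverdin reductase gene Blvrb 1.60-fold. Falls were seen in Me2, a mitochondrial malic enzyme (1.25-fold), and in Ephx1, microsomal epoxide hydrolase (1.17-fold). Among the genes of NADPH supply, G6pdx, Pgd, Tkt, Me1, Idh1, Nnt and Mthfd2 did not pass (log2 fold changes from -0.10 to 0.08). Taldo1, Me3 and Idh2 rose, by 0.39, 0.45 and 0.25 on the log2 scale. Blvra, the reductase chiefly responsible for the biliverdin that HMOX1 makes, differed by 0.08 on the log2 scale and did not pass (adjusted p = 0.581).

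Of 19 regulators around NRF2, 4 rose, 1 fell and 14 did not pass (median 0.12). Calls made up 26.3% of the list (21.1% higher and 5.26% lower), beside 18% (9.44% and 8.59%) of all rows. With 1 gene of the list under a mean log2 level of 5, the share is near the 27.9% called among brighter rows. Rbx1, of the ubiquitin ligase that KEAP1 serves, rose 1.30-fold, Mafk, a small MAF partner of NRF2, 1.29-fold, Trim21 1.27-fold and Nfe2l1, which encodes the related factor NRF1, 1.13-fold, and Palb2 fell 1.17-fold. With 1 array left out, 2 to 3 of these regulators rose and 0 to 1 fell.

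Of 29 genes for oxidant-producing enzymes, 5 rose, 4 fell and 20 did not pass (median -0.04). That is 31% of the list (17.2% higher and 13.8% lower), beside 18% (9.44% and 8.59%) of all rows. In this list 11 genes had a mean log2 level under 5, and 27.9% of all rows at or above that level were called. With replicate 2 of either genotype left out, 2 rose, and with any 1 array left out, 2 to 3 fell. The xanthine dehydrogenase gene Xdh rose 1.79-fold, the monoamine oxidase gene Maoa 1.46-fold and the NADPH oxidase gene Nox4, a source of hydrogen peroxide in fibroblasts, 1.25-fold. Cyba, which encodes the p22phox subunit that Nox4 needs, fell 1.25-fold and the lysyl oxidase family gene Loxl3 fell 1.46-fold.

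**Figure D5:**
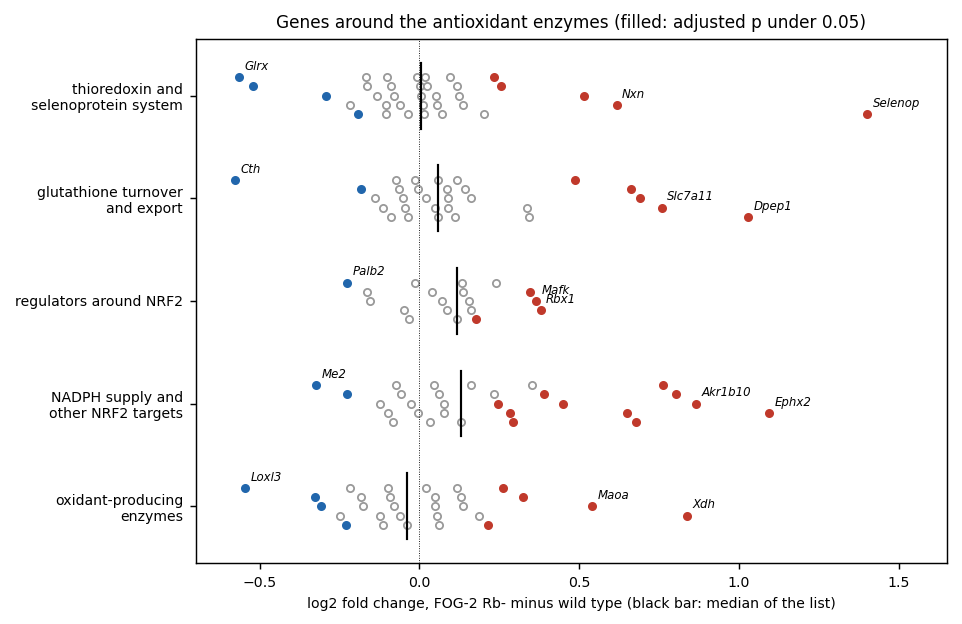
Log2 fold changes of the genes in the 5 surrounding lists, 1 point per gene, with the list's median as a black bar and filled points for genes past adjusted p of 0.05. The medians lie between -0.04 and 0.13, and Selenop, Ephx2 and Dpep1 are the points beyond 1.

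Arrays of 1 genotype correlated at 0.997 to 0.998 over all rows and arrays of different genotypes at 0.990 to 0.991, and array medians ran from 5.65 to 5.73. The check of cell identity showed fibroblast markers at high signal in all arrays, with 10 of 10 genes above log2 5. Of all rows the test called 18%, and of rows with a mean log2 level of at least 5 it called 27.9%. Of the 10 fibroblast markers it called 60%, of which 2 rose (Col1a1, Col3a1) and 4 fell (Dcn, Pdgfra, Thy1, S100a4). Their summed linear signal was 38044 to 39083 in wild type and 37641 to 38064 in FOG-2 Rb- arrays. Some markers of other cells were called as well. All 6 mesothelial markers were called (100%), of which 5 rose (Upk1b, Upk3b, Wt1, Krt19 and Lrrn4) and 1 fell (Msln). Their summed linear signal was 467 to 492 in wild type and 1103 to 1168 in FOG-2 Rb- arrays. Most of that difference came from Upk1b, whose mean log2 level went from 6.02 to 9.30 (9.68-fold). The other rises were 1.38-fold to 2.44-fold, and Msln fell 2.35-fold. Of 6 epithelial markers 1 rose (Krt18, 16.7% of the list), with sums of 251 to 280 against 472 to 512. Of 5 endothelial markers 1 rose (Kdr, 20% of the list), with sums of 163 to 180 against 320 to 339. Both shares are near that of all rows, and the other markers of these lists did not pass. Of 4 macrophage markers 2 rose (Cd68 and Csf1r, 50% of the list), with sums of 214 to 227 against 325 to 331. No value on these arrays is 0, but several of these markers had mean levels under 5. They were Ptprc and Adgre1 of macrophages, Tek and Tie1 of endothelium, Epcam and Krt14 of epithelium and Lrrn4 of mesothelium. All 6 erythroid markers were under 5 and none was called, and none of 4 liver markers was called. Of 5 neural markers 1 rose and 1 fell (40% called). The part of these markers in the antioxidant results was not tested, and in bulk RNA a change in the number of cells of a type cannot be told apart from a change in RNA per cell. Zfpm2, the altered gene, measured 9.64 to 9.76 in wild type and 9.39 to 9.40 in FOG-2 Rb- arrays. Xist lay between 11.69 and 11.75 and the Y-linked genes Kdm5d, Uty and Eif2s3y at or below 3.78 in all 6 arrays, with the genotypes overlapping in each.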

How the data were processed

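Total RNA (270 ng per sample) was labelled with an Affymetrix whole-transcript kit, per the labels' protocols, and hybridised to 6 arrays. The authors deposited log2 expression values, 1 row per Entrez gene; RMA and Partek are named, without versions, per the submitters' processing notes. For the probe definition and genome build, nothing is given in the sources used here. Background and saturation could not be read from these values. A further table that the authors deposited holds a p-value, a linear ratio and a signed fold change (mutant over wild type) per gene. Its log2 ratios differed from the differences of group means by at most 7.18e-06.

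Symbols came from the platform annotation (23111 of 23748 rows; 637 have none); list genes and Prdx5 and Prdx6 were also matched by Entrez ID in a RefSeq table, which served for gene order as well. Differences were tested across all rows with limma 3.58.1 in R 4.3.3 (lmFit, eBayes, genotype only, two-sided, Benjamini-Hochberg, threshold 0.05), and the fit was tested on simulated data. Fold changes are from mean log2 values. The number of arrays limits the precision. Values of every array, means with SD and adjusted p are given for members past the threshold whose groups did not overlap and that changed by at least 0.3 on the log2 scale, and for 14 members listed by name; other members are given more briefly. Of each list, up to 5 called genes with the largest change are named. Further genes (Txn2, Abcc1, Me2, Ephx1, Blvra and the other named genes of NADPH supply) were chosen after their values were seen. The members and lists were chosen with earlier results of these data known. The alternatives left out each array, added a replicate block, changed the variance prior, centring and normalization, dropped rows with a mean under 5, or used the deposited p-values (12 settings). Updated symbols were a further alternative, for the counts of members only.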

Additional observations from a re-analysis of the deposited data

How the results depend on the processing

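Counts of members held within 1.5 times under all alternatives. They ranged from 7 to 11 higher and from 9 to 11 lower with 1 array left out. All rows called ranged from 2805 (without FOG-2 Rb- replicate 3) to 3446 with 1 array left out, against 4281. The labels do not say that replicate numbers mark a batch, so the numbers were not taken as pairs in the main fit. Deviations of same-numbered arrays from their group means had correlations of 0.03, 0.02 and 0.00. With the replicate block, 3181 rows, 8 members higher and 10 lower passed.

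Counts for the surrounding lists moved more. With 1 array left out, the thioredoxin and selenoprotein list had 3 to 5 higher and 2 to 4 lower, glutathione turnover 5 to 7 higher and 1 lower throughout, NRF2 regulators 2 to 3 higher and 0 to 1 lower, NADPH supply and other targets 8 to 11 higher and 2 lower, and oxidant-producing enzymes 2 to 5 higher and 2 to 3 lower. With the replicate block, thioredoxin and selenoprotein genes were 3 higher, glutathione turnover 1 lower, NRF2 regulators 1 higher and 0 lower, and oxidant-producing enzymes 3 higher and 2 lower. With arrays centred on the median, glutathione turnover had 1 lower and NRF2 regulators 0 lower. NRF2 regulators had 9 higher with a trended, robust variance prior and, on rows with a mean of at least 5, 9 higher and 2 lower; by the authors' deposited p-values, adjusted, they had 2 higher and 2 lower.

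Changes of sign occurred only in uncalled members. With 1 array left out, log2 fold changes ran from -0.00718 to 0.183 for Gpx2, -0.0671 to 0.109 for Gpx5, -0.00936 to 0.378 for Gstm3, -0.176 to 0.116 for Gstm4, -0.00307 to 0.115 for Prdx1, -0.00969 to 0.0169 for Txnrd1, -0.00291 to 0.0785 for Gstt4 and -0.0729 to 0.101 for Srxn1. With quantile normalization anew, Txnrd1 was at -0.022 and Srxn1 at -0.00504. The cause of these shifts was not tested. None of the 9 members with a mean under 5 was called, and signal over background was not available for them.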
